A study of Homo sapiens with 38 samples.

Results

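The protocadherins were followed through the first 8 days of neural differentiation of H9, an established human embryonic stem cell line. The genes were taken as every protein-coding gene of the deposited expression table whose symbol begins with PCDH, which gave 66 of the 58219 genes listed: 15 PCDHA, 16 PCDHB and 22 PCDHG genes that lie in tandem on chromosome 5, and 13 non-clustered genes spread over the genome. All cells were wild type, and 38 libraries of polyadenylated RNA formed 19 groups of 2 each. At day 4 (D4) and again at day 8 (D8) the groups were CT4.0RA (4.0 µM CT with 1.0 µM RA, intended to give spinal cord progenitors), 6 groups given CT, a WNT activator whose name the labels do not write out, and named for its dose in µM (CT0.4 for the lowest up to CT4.0 for the highest, with 0.8, 1.0, 2.0 and 3.0 between them, intended to cover diencephalic to hindbrain fates), IWP2 (the WNT inhibitor IWP2 at 2 µM, intended to give rostral forebrain) and CT0.0 (no CT), and the starting stem cells were D0. All differentiated cells came from 1 line. The labels call the libraries biological replicates without saying that they came from separate differentiations, so each p-value measures the spread between these libraries.

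Protocadherins are cell surface proteins of the cadherin superfamily. The clustered genes are unusual in that every gene of a cluster has its own promoter and a large variable exon for the extracellular domain; in the alpha and gamma clusters that exon is spliced to constant exons shared by the whole cluster, whereas beta genes have a single exon. Neurons choose a few of these promoters, a choice that depends on CTCF, cohesin and DNA methylation, and the resulting mixture of proteins binds only to the same mixture, which in mouse lets branches of 1 neuron recognise and avoid each other. The C-type genes (PCDHAC1, PCDHAC2, PCDHGC3, PCDHGC4 and PCDHGC5) close the alpha and gamma clusters and are used more uniformly. The non-clustered genes are single genes in the delta-1 group (PCDH1, PCDH7, PCDH9, PCDH11X and PCDH11Y), the delta-2 group (PCDH8, PCDH10, PCDH17, PCDH18 and PCDH19) and 3 others (PCDH12, PCDH15 and PCDH20), and they are known for regional expression in the developing brain and for sorting and movement of cells.

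Since promoter choice defines the clustered genes, the promoters of the genes on which the results turn are shown, taken from RefSeq (GRCh38.p14; 58 of the 66 genes had a window of 250 bases before to 50 after the start). The lines give the plus strand of chromosome 5, the strand on which all of these genes are read. Capitals mark 1 match on that strand: the longer motif of the gene's own cluster, or CGCT where that motif was not found. Other matches can stand unmarked in lower case. The counts below the lines cover 4 motifs on both strands.
PCDHA10, chr5:140855837-140855880: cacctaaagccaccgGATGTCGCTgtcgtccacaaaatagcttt
PCDHA11, chr5:140868879-140868922: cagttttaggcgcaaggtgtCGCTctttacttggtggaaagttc
PCDHAC2, chr5:140966415-140966458: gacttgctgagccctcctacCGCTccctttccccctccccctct
PCDHB2, chr5:141094540-141094583: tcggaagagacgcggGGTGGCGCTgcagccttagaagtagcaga
PCDHB5, chr5:141135175-141135205: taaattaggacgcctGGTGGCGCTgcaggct
PCDHB15, chr5:141245310-141245353: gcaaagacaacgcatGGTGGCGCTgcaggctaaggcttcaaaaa
PCDHGB4, chr5:141387613-141387656: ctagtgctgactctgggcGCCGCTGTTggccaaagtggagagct
PCDHGB7, chr5:141417603-141417646: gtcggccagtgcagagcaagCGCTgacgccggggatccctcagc
PCDHGC3, chr5:141475895-141475938: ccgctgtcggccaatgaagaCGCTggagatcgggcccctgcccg
PCDHGC4, chr5:141484948-141484991: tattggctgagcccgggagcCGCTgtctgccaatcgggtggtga
The motif GATGTCGCT was present in 9 of 13 PCDHA promoters and in 0.1282% of all 27305 promoters. GGTGGCGCT was present in 13 of 14 PCDHB promoters and in 0.6189% of all. GNCGCTGTT, where N is any base, was present in 13 of 20 PCDHG promoters, in 1 PCDHB promoter and in 1.0181% of all. All 3 contain the 4-base core CGCT, which was present in 12 of 13 PCDHA, 14 of 14 PCDHB and 20 of 20 PCDHG promoters but also in 10 of 11 non-clustered promoters and in 71.8733% of all, so the core alone sets no gene apart. None of the 11 non-clustered promoters held a longer motif. Among the promoters printed, those of PCDHA11, PCDHAC2, PCDHGB7, PCDHGC3 and PCDHGC4 held the core but not their cluster's longer motif on the plus strand. A match is a run of letters and not a measured binding site.

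Expression was given as TPM, the share of all transcripts on a fixed scale and already divided by transcript length, so levels can be set against each other between genes. Of the 66 genes, 57 reached a group mean of 1 TPM somewhere, 28 reached 5 TPM and 18 reached 10 TPM. Of the 55 with at least 1 TPM in 2 or more libraries, which were the ones tested, 42 were clustered (13 PCDHA, 13 PCDHB and 16 PCDHG) and 13 non-clustered. PCDHA8, PCDHA9, PCDHB1, PCDHB7, PCDHB8, PCDHGA1, PCDHGA2, PCDHGA3, PCDHGA7, PCDHGA10 and PCDHGA12 were not tested. The 2 libraries of a group correlated at r = 0.958 to 0.972 over all genes, and 33 of 38 libraries were closest to the other of their group. The exceptions were both D4 CT3.0, both D8 CT0.0 and 1 D8 CT4.0 library, each closest to a neighbouring dose or to IWP2. Ribosomal protein genes took 17.4% to 38.6% of all TPM, lowest in D8 IWP2 and highest in D8 CT4.0RA. In bulk RNA, fewer cells of a type and less RNA per cell cannot be told apart.

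The PCDHA genes span chr5:140786136-141012347, the PCDHB genes chr5:141051135-141249365 and the PCDHG genes chr5:141330571-141512981 (hg38, GENCODE 29, all on the plus strand). Within each cluster a few genes carried much of the signal in every group. The top 3 genes made up 40.3% to 50.9% of the PCDHA sum, 62.2% to 75.9% of the PCDHB sum and 52.8% to 64.6% of the PCDHG sum. PCDHB2 and PCDHB15 were among the top 3 beta genes in 19 of 19 groups and PCDHB5 in 18; PCDHGC3 was among the top 3 gamma genes in 19 and PCDHGB7 in 17; PCDHA11 was among the top 3 alpha genes in 15, PCDHA2 and PCDHA4 in 13 each and PCDHAC2 in 9. The genes resemble each other, and this bears on how reads could be assigned: of the 31-base words in a gene's transcripts, a median of 45.6% in PCDHA, 75.2% in PCDHB and 54.8% in PCDHG occurred in no other gene, against 99.0% in the non-clustered genes. The values of single clustered genes therefore rest on the authors' assignment of shared reads, above all for PCDHGB4 (26.6% of words its own) and PCDHA8 (28.5%).

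**Figure D1:**
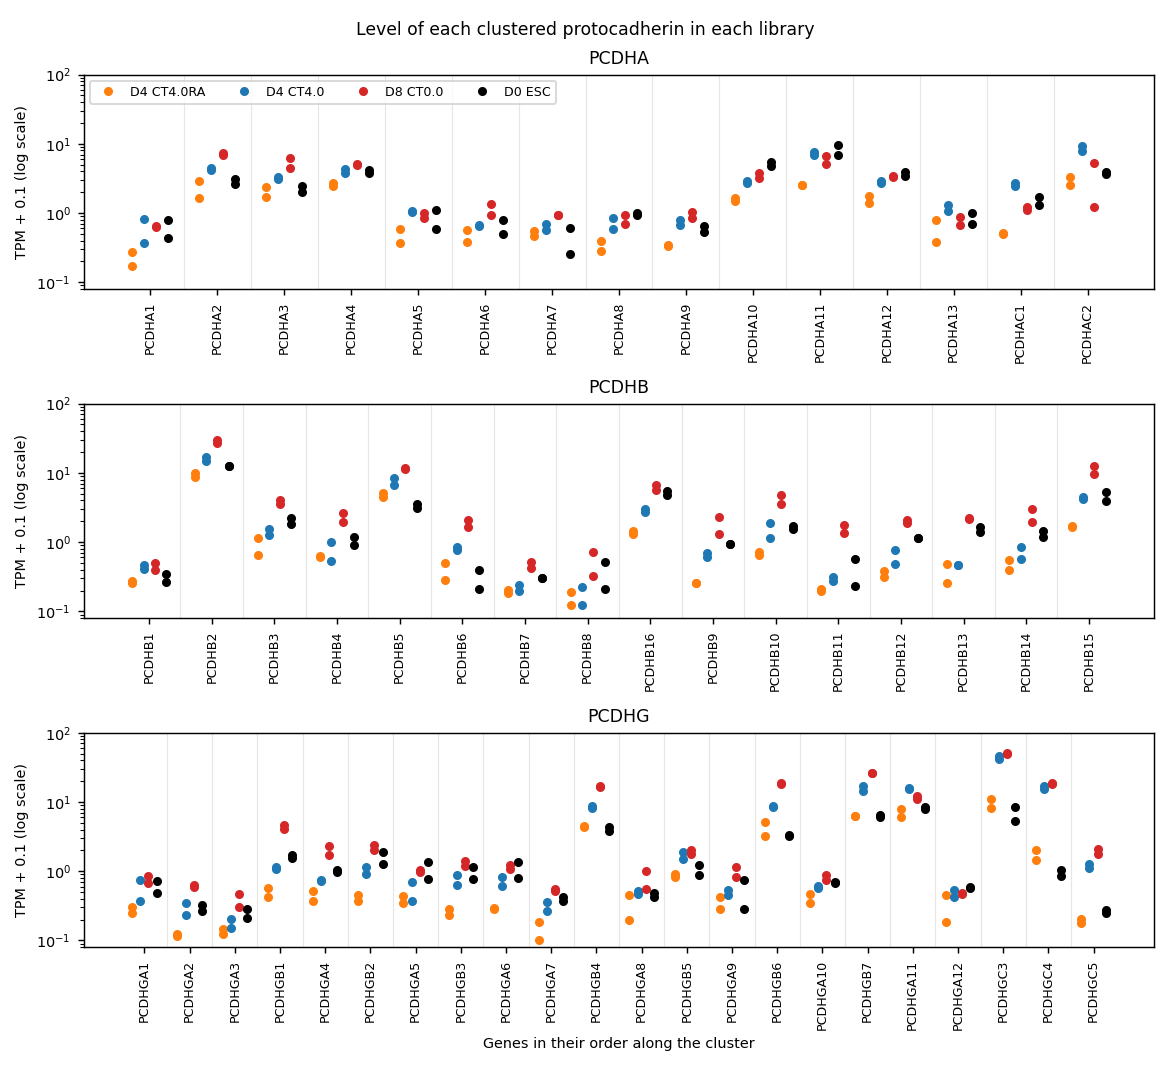
TPM + 0.1 (log axis) of each clustered gene in each library of D4 CT4.0RA, D4 CT4.0, D8 CT0.0 and D0, with genes in their order along PCDHA, PCDHB and PCDHG. Each point is 1 library; PCDHB2, PCDHGB7 and PCDHGC3 stand above most of their neighbours, and the D4 CT4.0RA points lie lowest for most genes.

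Summed over each cluster, the gamma genes rose most with neural differentiation and with time. The PCDHG sum was 104 and 111 TPM in the 2 D4 CT0.0 libraries, against 38.8 and 41.2 TPM in D0. It was 162 and 161 TPM in D8 CT0.0. The PCDHB sum was 69.996 and 77.466 TPM in D4 CT0.0, against 35.6 and 35.1 TPM in D0. For PCDHA the values were 37.3 and 40.0 TPM in D4 CT0.0, against 34.7 and 35.3 TPM in D0, so the alpha sum moved least. On the log2 scale these differences were 1.43 for PCDHG, 1.06 for PCDHB and 0.14 for PCDHA. In none of the clusters did the D4 CT0.0 and D0 libraries overlap. The make-up of the gamma sum also differed: the 3 PCDHGC genes held 27.3% of it in D4 CT0.0 and 43.8% in D8 CT0.0, against 19.5% in D0, while the 12 PCDHGA genes held 17.5% in D4 CT0.0, against 34.9% in D0.

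**Figure D2:**
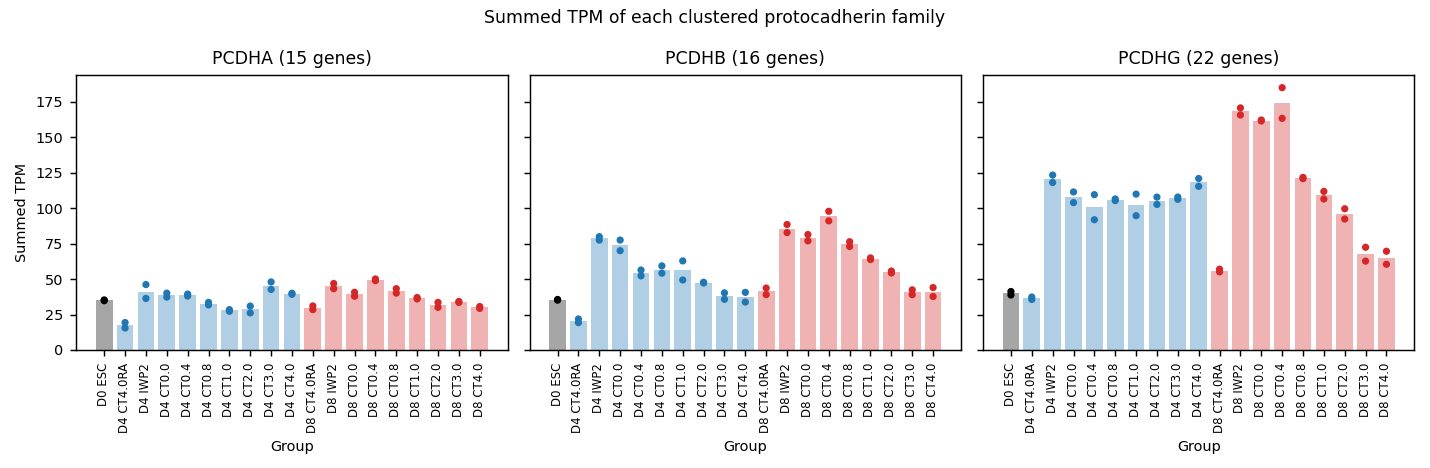
Summed TPM of the PCDHA, PCDHB and PCDHG genes in the 19 groups; points are the 2 libraries of a group and bars their mean. The D4 CT4.0RA group is the lowest in each panel, and the D8 PCDHG sum is lower at 3.0 and 4.0 µM CT than at 0.4 µM.

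By gene, 10 protocadherins were higher and 3 were lower in D4 CT0.0 than in D0, among 7.51% and 9.24% of all tested genes (limma, Benjamini-Hochberg adjusted p under 0.05 and a difference of at least 1 on the log2(TPM + 1) scale, the rule for every call below). Of the 10 higher, 8 were clustered and none of the 3 lower was (1 clustered gene was lower at an unadjusted p under 0.05). The median difference was 0.41 over the 42 clustered genes and 0.05 over all genes, and all 13 tested PCDHB genes had a positive difference, against 6 of 13 PCDHA genes. PCDHGB6 had 14.5 and 14.3 TPM in D4 CT0.0, against 3.13 and 3.28 TPM in D0 (difference 1.87 ± 0.15 SE, adjusted p = 5.59e-10). PCDHGB7 had 22.6 and 25.4 TPM in D4 CT0.0, against 6.38 and 6.02 TPM in D0 (1.79 ± 0.11, 5.8e-12). PCDHB5 had 11.5 and 15.4 TPM in D4 CT0.0, against 3.04 and 3.48 TPM in D0 (1.75 ± 0.16, 8.85e-09). For all 3 genes both day 4 libraries lay above both stem cell libraries, as the rule for naming the largest changes required. PCDHGC3, PCDHGC4, PCDHGB4, PCDHB2 and PCDHGB1 completed the clustered set with differences of 1.74, 1.55, 1.42, 1.07 and 1.09; PCDHGB1 fell to 0.95, under the size limit, without the 2nd D4 CT0.0 library.

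Among the non-clustered genes the same step moved genes both ways. PCDH18, a delta-2 gene, had 93.4 and 101 TPM in D4 CT0.0, against 31.7 and 29.5 TPM in D0 (1.64 ± 0.12, adjusted p = 1.43e-10), the highest level of any protocadherin at that point. PCDH10, another delta-2 gene, fell to 0.0497 and 0.207 TPM in D4 CT0.0, against 3.28 and 2.20 TPM in D0 (-1.72 ± 0.21, 5.65e-07). PCDH20 fell to 0.0200 and 0.0409 TPM, against 1.31 and 1.74 TPM in D0 (-1.29 ± 0.15, 2.81e-07). Both genes had their highest group mean in the stem cells and were low even there. PCDH20 shares nearly all of its words with another gene, listed at 0 in every library. PCDH17 rose by 1.17. PCDH11X and PCDH11Y share 69.97% and 69.91% of their words and are given as their sum. That sum was 8.35 and 6.60 TPM in D4 CT0.0, against 24.9 and 14.3 TPM in D0. The split of values between the entries varied, with PCDH11Y at 5.52 and 0.725 TPM in the D0 libraries. With so many shared words, reads of PCDH11X can be listed under PCDH11Y. These values therefore do not show that PCDH11Y itself was transcribed, which was not tested.

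With CT, day 4 against the stem cells looked different: D4 CT4.0 had 5 genes higher and 4 lower than D0, among 4.71% and 9.45% of all tested genes. The 4 clustered genes that rose were PCDHGC4 (3.20 ± 0.16, adjusted p = 3.03e-13), PCDHGC3 (2.57), PCDHGB7 (1.20) and PCDHGB6 (1.17), and the median of the 42 clustered genes was 0.00 with 21 differences on either side of 0. PCDH19 rose by 2.12, and PCDH1 fell by 3.45, PCDH7 by 2.22, PCDH10 by 1.49 and PCDH20 by 1.09; PCDH20 was at -0.96 without the 2nd D0 library. With the TPM rescaled after removal of ribosomal protein and mitochondrial genes, 10 genes were higher and 4 lower.

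Between day 4 and day 8 without CT, 5 genes rose and 2 fell, among 4.11% and 1.67% of all tested genes. Of the 5, the clustered ones were PCDHGC4, with 18.7 and 17.9 TPM in D8 CT0.0 against 4.72 and 4.18 TPM in D4 CT0.0 (1.83 ± 0.16, adjusted p = 3.45e-08), and PCDHGC3, with 51.6 and 49.9 TPM against 24.2 and 24.6 TPM in D4 CT0.0 (1.02 ± 0.20, 0.000874). Both are C-type genes, and their libraries did not overlap between days. The C-type genes of the alpha cluster, PCDHAC1 and PCDHAC2, did not rise as a pair. Their summed mean was 4.24 TPM in D8 CT0.0, against 6.61 TPM in D4 CT0.0, and neither was called. The D8 CT0.0 mean is uncertain, because the 2 PCDHAC2 libraries of that group were far apart. PCDHGC5, the last gene of the gamma cluster, stayed near the low end, with 1.68 and 1.96 TPM in D8 CT0.0 against 0.588 and 0.348 TPM in D4 CT0.0, a difference of 0.94 that passed on p (0.00103) but missed the size limit. PCDH19 (1.71 ± 0.21) and PCDH17 (1.62 ± 0.18) rose. PCDH18 fell by 1.68 and PCDH1 by 1.20. PCDH8 had 1.82 and 1.72 TPM in D8 CT0.0 against 0.0371 and 0.0538 TPM in D4 CT0.0 (1.40 ± 0.41, 0.0182), a call that was lost when any 1 of these 4 libraries was left out (adjusted p 0.0691 to 0.0848).

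RA went with lower clustered genes at day 4. There, all 42 tested clustered genes had a lower value in CT4.0RA than in CT4.0 with no RA, with a median of -0.52 against -0.18 over all genes. D4 CT4.0RA was the lowest of the 19 groups for 34 of the 53 clustered genes, which include those too low to be tested. The share of all genes that were lowest in this group was not counted. The PCDHG sum was 37.3 and 35.6 TPM in D4 CT4.0RA, against 115 and 121 TPM in D4 CT4.0, and the PCDHA sum 19.4 and 15.5 TPM, against 39.2 and 40.0 TPM in D4 CT4.0. The PCDHB sum was 21.9 and 19.3 TPM in D4 CT4.0RA, against 33.8 and 40.6 TPM in D4 CT4.0. As log2 ratios these are -1.70, -1.20 and -0.85, and the groups did not overlap in any cluster. Ribosomal protein genes took 30.7% of TPM in D4 CT4.0RA, against 23.3% in D4 CT4.0. After rescaling without ribosomal protein and mitochondrial genes, the median of all genes was -0.05 in place of -0.18, and that of the clustered genes -0.54, with all 42 still negative.

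By the call rule 10 genes were lower and 2 higher in D4 CT4.0RA than in D4 CT4.0, among 4.07% and 1.77% of all tested genes, and 8 of the 10 were clustered. PCDHGC4, needed in mouse for the survival of cortical interneurons, had 1.37 and 1.91 TPM in D4 CT4.0RA, against 16.8 and 15.3 TPM in D4 CT4.0 (-2.70 ± 0.16, adjusted p = 2.42e-11). PCDHGC3 had 8.19 and 10.9 TPM in D4 CT4.0RA, against 42.2 and 46.5 TPM in D4 CT4.0 (-2.11 ± 0.20, 5.26e-08). Each stood well apart between the groups. PCDHAC1 had 0.416 and 0.399 TPM, against 2.64 and 2.36 TPM in D4 CT4.0 (-1.31 ± 0.18, 9.23e-06). PCDHAC2, needed in mouse for the spacing of serotonergic axons, had 3.18 and 2.40 TPM, against 9.20 and 7.81 TPM in D4 CT4.0 (-1.33 ± 0.39, 0.0157). The PCDHAC2 call was lost in 3 of the fits without 1 library: adjusted p was 0.0915 without the 1st D4 CT4.0 library, 0.0551 without the 2nd, and 0.123 without the 2nd D4 CT4.0RA library. The remaining called genes were PCDHA11 (-1.22), PCDHGB7 (-1.20), PCDHGA11 (-1.09) and PCDHB15 (-1.03). PCDHGA11 was at -0.93 without the 2nd D4 CT4.0RA library and -0.95 after rescaling, and PCDHB15 at -0.99 without the 2nd D4 CT4.0 library. PCDHGC5 was also lower, at 0.104 and 0.0767 TPM against 1.15 and 1.01 TPM in D4 CT4.0, but its difference of -0.93 missed the size limit.

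**Figure D3:**
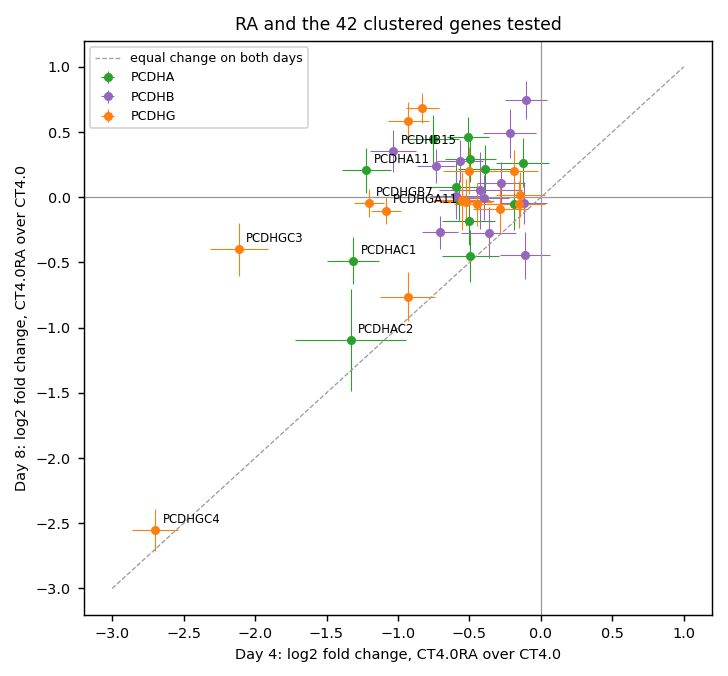
Log2 difference of CT4.0RA over CT4.0 at day 4 (horizontal axis) and at day 8 (vertical axis) for the 42 tested clustered genes; bars are 1 standard error and the dashed line marks equal values. All 42 lie left of 0 at day 4, while at day 8 20 lie above and 22 below 0, with PCDHGC4 far below on both axes.

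By day 8 the clustered genes were spread on both sides of 0 with RA, but PCDHGC4 was again far lower. In D8 CT4.0RA 5 genes were higher and 2 lower than in D8 CT4.0, among 4.54% and 4.33% of all tested genes; after rescaling the counts were 6 and 1, and without the 2nd D8 CT4.0 or the 2nd D8 CT4.0RA library 4 genes were called in all. The median of the 42 clustered genes was -0.01, with 20 positive and 22 negative differences, and after rescaling it was 0.12, with 30 positive and 12 negative. Both lower genes were clustered. PCDHGC4 had 0.716 and 0.781 TPM in D8 CT4.0RA, against 7.52 and 11.3 TPM in D8 CT4.0 (-2.55 ± 0.16, adjusted p = 4.03e-11), and its D8 CT4.0RA level was close to that of D0, which had 0.754 and 0.957 TPM. PCDHGC4 is thus low in both RA groups. PCDHAC2 had 2.67 and 2.02 TPM in D8 CT4.0RA, against 6.38 and 5.84 TPM in D8 CT4.0 (-1.09 ± 0.39, 0.0416), a call lost without any 1 of the 4 libraries (adjusted p 0.0802 to 0.202). PCDHGC5 had 0.263 and 0.153 TPM, against 0.953 and 1.14 TPM in D8 CT4.0, a difference of -0.76 (0.004) under the size limit. Among the rest, PCDHGB4 had 7.41 and 7.18 TPM in D8 CT4.0RA, against 4.04 and 4.28 TPM in D8 CT4.0 (0.69, adjusted p = 8.7e-05), likewise under the limit. Ribosomal protein genes took 38.6% of TPM in D8 CT4.0RA and 29.7% in D8 CT4.0.

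The difference between days was tested directly. The RA difference was higher at D8 than at D4 for 11 genes and lower for none (1 at an unadjusted p under 0.05), among 5.56% and 1.56% of all tested genes, and 7 of the 11 were clustered (PCDHGC3, PCDHGB4, PCDHGB6, PCDHA11, PCDHB15, PCDHA2 and PCDHGB7). Within the CT4.0RA condition, D8 against D4 gave 5 genes higher and none lower, among 3.26% and 1.96% of all tested genes; at an unadjusted p under 0.05, limma gave 28 higher and 2 lower. Those 5 were PCDH17 (1.55 ± 0.18, adjusted p = 1.26e-06), PCDHB15 (1.49 ± 0.16, 3e-07), PCDH15 (1.30 ± 0.35, 0.00972), PCDH18 (1.26 ± 0.12, 3.72e-08) and PCDHA2 (1.08 ± 0.18, 9.57e-05). PCDHB15 had 5.81 and 6.69 TPM in D8 CT4.0RA, against 1.59 and 1.57 TPM in D4 CT4.0RA. PCDHA2 had 5.72 and 5.37 TPM in D8 CT4.0RA, against 2.75 and 1.55 TPM in D4 CT4.0RA, and was at 0.80 without the 2nd D4 CT4.0RA library. PCDH15 lost its call without either D4 CT4.0RA library (0.0507 and 0.0536) or without the 2nd D8 CT4.0RA library (0.113). In CT4.0 alone, D8 against D4 gave 2 lower genes and no higher one, among 3.81% and 1.95% of all tested genes, with 15 lower and 2 higher at an unadjusted p under 0.05; rescaling gave 2 lower and 1 higher, and the calls numbered 5 without the 1st D4 CT4.0 library and 1 and 6 without the 1st and the 2nd D8 CT4.0 library. PCDHGA11 had 6.17 and 6.64 TPM in D8 CT4.0, against 15.8 and 15.5 TPM in D4 CT4.0 (-1.17 ± 0.11, 3.82e-08), and PCDH1 differed by -1.09, which became -0.92 without the 2nd D4 CT4.0 library and -0.76 without the 1st D8 CT4.0 library.

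Markers of cell state moved with RA as well. The neural progenitor list (PAX6, SOX1 and NES) summed to 315 and 336 TPM in D4 CT4.0RA, against 92.5 and 95.7 TPM in D4 CT4.0, and to 531 and 532 TPM in D8 CT4.0RA, against 81.7 and 87.4 TPM in D8 CT4.0. PAX6 averaged 168 TPM in D4 CT4.0RA and 1.49 TPM in D4 CT4.0, close to its 1.36 TPM in D0. The mesoderm list (TBXT, TBX6, MSGN1, MEOX1 and MESP1) summed to 7.47 and 8.13 TPM in D4 CT4.0RA, against 32.9 and 46.0 TPM in D4 CT4.0, where TBXT alone averaged 36.3 TPM. MEOX1 went the other way, with 7.01 and 6.35 TPM in D4 CT4.0RA, against 0 and 0.157 TPM in D4 CT4.0, and made up most of the D4 CT4.0RA sum. Of the progenitor list D4 CT4.0 held NES (92.5 TPM), but NES averaged 77.5 TPM in D0 and 338 TPM in D4 CT0.0. SOX1 was low in both groups, at 0.996 and 0.521 TPM in D4 CT4.0RA, against 0.294 and 0.0684 TPM in D4 CT4.0. It averaged 0.221 TPM in D0 and 1.91 TPM in D4 CT0.0. PAX6 was thus near its stem cell level in D4 CT4.0, although these cells are labelled as neural progenitors. It does not define that state alone: in D4 CT1.0 PAX6 averaged 6.80 TPM, SOX1 91.0 TPM and NES 576 TPM. The list of 5 neuronal genes (DCX, STMN2, ELAVL3, ELAVL4 and TUBB3) summed to 93.5 and 106 TPM in D4 CT4.0RA, against 189 and 262 TPM in D4 CT4.0, and to 342 and 388 TPM in D8 CT4.0RA, against 180 and 190 TPM in D8 CT4.0. The sums were lower with RA at D4 and higher at D8, but they rest on STMN2 and TUBB3 at D4: DCX, ELAVL3 and ELAVL4 averaged 2.59, 4.45 and 3.48 TPM in D4 CT4.0RA, against 0.756, 3.43 and 2.22 TPM in D4 CT4.0. At D8 ELAVL3 and ELAVL4 went against the sum, at 8.47 and 2.12 TPM in D8 CT4.0RA, against 10.1 and 4.35 TPM in D8 CT4.0. A spinal cord and caudal list held HOXB8, HOXC6, HOXC8 and CDX2. It summed to 42.8 and 42.6 TPM in D4 CT4.0RA, against 377 and 507 TPM in D4 CT4.0. At D8 it summed to 93.6 and 87.6 TPM in CT4.0RA, against 344 and 403 TPM in CT4.0. On both days it was thus lower in CT4.0RA, the condition intended to give spinal cord progenitors. HOXB8 alone went the other way at D8, averaging 88.3 TPM in CT4.0RA and 82.3 TPM in CT4.0. The part of cell type in the RA comparisons was not tested.

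At day 4 the clustered genes had differences of both signs with CT, all of them negative in the beta cluster at 4.0 µM. In D4 CT4.0 2 protocadherins were higher and 5 lower than in D4 CT0.0, among 3.31% and 4.99% of all tested genes; after rescaling the counts were 2 and 9, and with a pseudocount of 0.1, which weighs low genes more, 6 and 15. Of the clustered genes, PCDHGC4 was higher, at 16.8 and 15.3 TPM against 4.72 and 4.18 TPM in D4 CT0.0 (1.65 ± 0.16, adjusted p = 4.65e-08). PCDHGB1 was lower, at 1.07 and 0.971 TPM against 3.90 and 4.92 TPM in D4 CT0.0 (-1.42 ± 0.18, 2.51e-06). PCDHB16 had 2.65 and 2.96 TPM, against 6.84 and 6.65 TPM in D4 CT0.0 (-1.03 ± 0.13, 2.69e-06), and was at -0.97 without the 1st D4 CT4.0 library. These groups did not overlap for any of the 3 genes, as the rule for naming the largest changes required. All 13 tested PCDHB genes had a negative difference (12 at an unadjusted p under 0.05), with a median of -0.76, against a median of -0.27 over the 42 clustered genes and -0.06 over all genes. PCDHGC3 had 42.2 and 46.5 TPM in D4 CT4.0, against 24.2 and 24.6 TPM in D4 CT0.0, a difference of 0.83 (0.00363) under the size limit.

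Over the 7 CT doses of day 4, 4 genes had a positive slope and 6 a negative one (at least 0.25 on the log2 scale per µM), among 3.75% and 3.9% of all tested genes. PCDHGC4 had 4.72 and 4.18 TPM at 0 µM, 7.98 and 8.07 TPM at 0.4 µM, 10.5 and 10.1 TPM at 1.0 µM, 10.8 and 13.1 TPM at 2.0 µM and 16.8 and 15.3 TPM at 4.0 µM (slope 0.33 ± 0.03, adjusted p = 2.01e-08). It climbed with each of these doses. At 1.0 µM it was 1.05 above CT0.0, or 0.98 without the 2nd D4 CT0.0 library. PCDHAC1 had a slope of 0.27, PCDHGB1 of -0.32 and PCDHB15 of -0.29. Over the 9 conditions of day 4, 42 of the 55 tested genes passed an F test, among 46.4% of all tested genes, with 32 of the 42 clustered and 10 of the 13 non-clustered genes among them. Both shares were above that of genes at large, a difference that was not tested.

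At day 8 the clustered genes were lower at high CT. In D8 CT4.0 14 protocadherins were lower than in D8 CT0.0 and none was higher, among 12.7% and 3.15% of all tested genes, and 10 of the 14 were clustered (38 lower and 5 higher at an unadjusted p under 0.05). After rescaling 10 were lower and 2 higher, and the median of all genes was -0.15 in place of -0.27. The median of the 42 clustered genes was -0.74, with 38 negative, or -0.62 after rescaling, with 37 negative. Ribosomal protein genes took 29.7% of TPM in D8 CT4.0, against 19.9% in D8 CT0.0. The PCDHG sum was 60.4 and 69.6 TPM in D8 CT4.0, against 162 and 161 TPM in D8 CT0.0, and the PCDHB sum 37.7 and 44.0 TPM, against 81.4 and 76.9 TPM in D8 CT0.0. The PCDHA sum, 30.6 and 29.3 TPM in D8 CT4.0, against 37.9 and 40.7 TPM in D8 CT0.0, moved least. As log2 ratios these are -1.32, -0.96 and -0.39, and no cluster's libraries overlapped. The neuronal list summed to 180 and 190 TPM in D8 CT4.0, against 242 and 254 TPM in D8 CT0.0, although ELAVL3 and ELAVL4 of that list were higher, at 10.1 and 4.35 TPM in D8 CT4.0, against 1.45 and 0.543 TPM in D8 CT0.0. PAX6 averaged 1.54 TPM in D8 CT4.0 and 110 TPM in D8 CT0.0; the part of these in the differences was not tested.

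PCDHGB4 fell most among the clustered genes. It had 4.04 and 4.28 TPM in D8 CT4.0, against 16.4 and 17.1 TPM in D8 CT0.0 (-1.78 ± 0.12, adjusted p = 4.14e-11). PCDHGB1 had 0.543 and 0.872 TPM, against 4.60 and 3.91 TPM in D8 CT0.0 (-1.62 ± 0.18, 1.78e-07), and PCDHGB6 had 5.41 and 5.66 TPM, against 18.1 and 18.9 TPM in D8 CT0.0 (-1.58 ± 0.15, 1e-08). PCDHGB7 had 9.97 and 10.7 TPM, against 26.2 and 26.4 TPM in D8 CT0.0 (-1.27 ± 0.11, 2.09e-09). These 4 genes of the gamma B class had no overlap between the groups, as the rule for naming the largest changes required. The share of the PCDHGB genes in the gamma sum was 34.2% in D8 CT4.0, against 43.8% in D8 CT0.0. In D8 CT4.0RA it was 50.8%. The other clustered genes called lower were PCDHB16 and PCDHB13 (-1.17 each), PCDHGC3 (-1.16), PCDHB15 (-1.07), PCDHB5 (-1.06) and PCDHB10 (-1.003). Several of these sat at the size limit: after rescaling PCDHGC3 was at -0.99, PCDHB10 at -0.96, PCDHB15 at -0.95 and PCDHB5 at -0.94, and without 1 library PCDHB15 was at -0.89 (1st D8 CT0.0), PCDHB5 at -0.81 (1st D8 CT4.0) and PCDHB10 at -0.83 (2nd D8 CT0.0) and -0.87 (2nd D8 CT4.0).

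Along the day 8 doses 16 genes had a negative slope and 1 a positive one, among 16.4% and 3.77% of all tested genes; after rescaling they were 16 and 4. PCDHGB4 had 16.4 and 17.1 TPM at 0 µM, 21.8 and 21.5 TPM at 0.4 µM, 13.2 and 11.9 TPM at 2.0 µM, 4.31 and 4.86 TPM at 3.0 µM and 4.04 and 4.28 TPM at 4.0 µM (slope -0.53 ± 0.02, adjusted p = 1.43e-14), so its level dropped between 2.0 and 3.0 µM. PCDHGC4 had 18.7 and 17.9 TPM at 0 µM, 13.3 and 13.5 TPM at 0.4 µM, 8.74 and 7.67 TPM at 1.0 µM and 7.52 and 11.3 TPM at 4.0 µM, a slope of -0.16 where that of day 4 was 0.33. Its difference at 1.0 µM was -1.07 ± 0.16 (5.39e-05), or -0.99 without the 2nd D8 CT1.0 library, and that at 4.0 µM, -0.91, missed the size limit. PCDHGC3 had 69.0 and 51.8 TPM at 0.4 µM and 20.7 and 23.7 TPM at 4.0 µM (slope -0.35). The 1 positive slope was that of PCDHAC2 (0.26 ± 0.08, 0.00729); its 2 D8 CT0.0 libraries, at 1.13 and 5.22 TPM, were far apart, and without the 1st the slope was 0.16 (0.0585). It was also under 0.25 without 4 other libraries. The slopes of 10 genes were lower at D8 than at D4 and that of 1 was higher, among 11.9% and 2.01% of all tested genes. Of the 42 tested clustered genes 6 were lower, near the 11.9% of all tested genes. The median difference was -0.11 over the clustered genes and -0.08 over all genes. Over the 9 conditions of day 8, 49 genes passed the F test, 38 of 42 clustered and 11 of 13 non-clustered, among 57.9% of all tested genes.

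At the lowest dose and with IWP2 no clustered gene passed the call rule, but most beta genes had a negative difference in D4 CT0.4. The PCDHB sum was 52.2 and 56.3 TPM there, against 69.996 and 77.466 TPM in D4 CT0.0, with no overlap. Of the 13 tested PCDHB genes, 12 had a negative difference (9 at an unadjusted p under 0.05), with a median of -0.47 against -0.10 over all genes. No clustered gene was called between IWP2 and CT0.0 (at an unadjusted p under 0.05, limma gave 3 higher and 1 lower at D4, and 2 higher and 0 lower at D8). None was called between CT0.4 and CT0.0 either (1 higher and 15 lower at D4, and 9 higher and 5 lower at D8, by the same unadjusted p). In D4 IWP2 no protocadherin was called in either direction, among 0.159% higher and 0.124% lower of all tested genes; at an unadjusted p under 0.05, limma gave 3 higher and 2 lower. In D8 IWP2 the 1 called gene was PCDH19, at 2.63 and 2.15 TPM against 7.87 and 6.25 TPM in D8 CT0.0 (-1.24 ± 0.21, adjusted p = 0.00201), among 0.195% higher and 0.23% lower of all tested genes, and 2 genes were called without the 2nd D8 CT0.0 library; at an unadjusted p under 0.05 there were 4 higher and 2 lower. Of the 53 clustered genes, 16 had their highest mean in D8 IWP2, 13 in D8 CT0.4 and 7 in D4 IWP2. A further 6 had it in D8 CT3.0 and 4 in D8 CT0.0. Ribosomal protein genes took the lowest shares of TPM in D8 IWP2 (17.4%) and D8 CT0.4 (17.6%). The share of all genes that peaked in these groups was not counted. PCDHA12 had 7.91 and 7.03 TPM in D8 CT0.4, against 3.38 and 3.22 TPM in D8 CT0.0 (0.98, 6.6e-05), just under the size limit.

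PCDH8, or paraxial protocadherin, a delta-2 gene known from somite formation, ranged widely over the CT doses. At day 4 it had 0.0371 and 0.0538 TPM at 0 µM CT, 1.33 and 3.24 TPM at 0.4 µM, 9.52 and 8.04 TPM at 1.0 µM, 28.2 and 24.5 TPM at 2.0 µM, 0.0325 and 0.0242 TPM at 3.0 µM and 0.152 and 0.164 TPM at 4.0 µM. At day 8 it had 1.82 and 1.72 TPM at 0 µM, 7.24 and 19.8 TPM at 0.4 µM, 36.4 and 26.5 TPM at 0.8 µM, 15.4 and 6.27 TPM at 1.0 µM, 74.6 and 109 TPM at 2.0 µM, 0.421 and 0.0147 TPM at 3.0 µM and 0.0563 and 0.572 TPM at 4.0 µM. On both days the level among CT doses peaked at 2.0 µM and the libraries at 3.0 µM did not overlap with it, so a straight slope (-0.33 at D4, -0.70 at D8) describes it poorly. The F test over conditions passed on both days (adjusted p = 1.35e-10 at D4 and 1.18e-11 at D8).

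PCDH8 was high in CT4.0RA on both days. It had 20.6 and 37.2 TPM in D4 CT4.0RA, against 0.152 and 0.164 TPM in D4 CT4.0 (4.63 ± 0.41, adjusted p = 1.48e-08), and 39.0 and 44.6 TPM in D8 CT4.0RA, against 0.0563 and 0.572 TPM in D8 CT4.0 (5.05 ± 0.41, 2.46e-09). This was the largest called RA difference among the protocadherins on each day. At 1.0 µM CT it was 3.22 above CT0.0 at D4 and 1.98 above at D8, the D8 value falling to 1.39 with an adjusted p of 0.0725 without the 1st D8 CT1.0 library. At 0.4 µM it was 2.24 above CT0.0 at D8 (0.00039) and 1.59 at D4 (0.0122), the D4 call being lost without either D4 CT0.0 library (0.0585 and 0.0745) or without the 2nd D4 CT0.4 library (0.155). In D8 CT4.0 it was 1.10 lower than in D8 CT0.0 on the log2 scale (0.0383), a call lost without either D8 CT0.0 library (0.124 and 0.105), without the 1st D8 CT4.0 library (0.254) and with no filter on low values (0.0575). Since PCDH8 marks presomitic mesoderm, the mesoderm list was set beside it. It summed to 0.753 and 0.830 TPM in D4 CT2.0, 1.11 and 1.54 TPM in D8 CT2.0 and 9.32 and 15.5 TPM in D8 CT4.0RA; in D8 CT4.0RA TBXT and MSGN1 were at 0 in both libraries, and MEOX1 made up 8.51 and 14.97 TPM. The list was highest in D4 CT4.0, where PCDH8 was near 0. The part of such cells in the PCDH8 values was not tested.

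PCDH1, a delta-1 gene best known from airway epithelium, was lower at higher CT and lowest with RA. It had 48.2 and 50.8 TPM at 0 µM CT at day 4, 21.6 and 27.7 TPM at 0.4 µM, 11.9 and 10.7 TPM at 0.8 µM, 8.29 and 8.89 TPM at 1.0 µM and 5.55 and 7.36 TPM at 4.0 µM (slope -0.58 ± 0.04, adjusted p = 3.78e-11). In D4 CT4.0RA it had 1.43 and 0.711 TPM, lower again than in D4 CT4.0 (-1.86 ± 0.19, 1.94e-07). In D0 it had 70.9 and 89.8 TPM, above all day 4 libraries. The levels at 2.0 µM (5.67 and 5.75 TPM) and 3.0 µM (6.08 and 6.29 TPM) lay within the range of those at 4.0 µM, so at day 4 PCDH1 went no lower above 2.0 µM CT. At day 8 it had 20.4 and 21.6 TPM at 0 µM, 4.89 and 6.06 TPM at 0.4 µM and 1.76 and 3.37 TPM at 4.0 µM. The drop at 0.4 µM of day 8 was 1.77 on the log2 scale (4.47e-07), and that at 4.0 µM was 2.66 (2.38e-10).

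**Figure D4:**
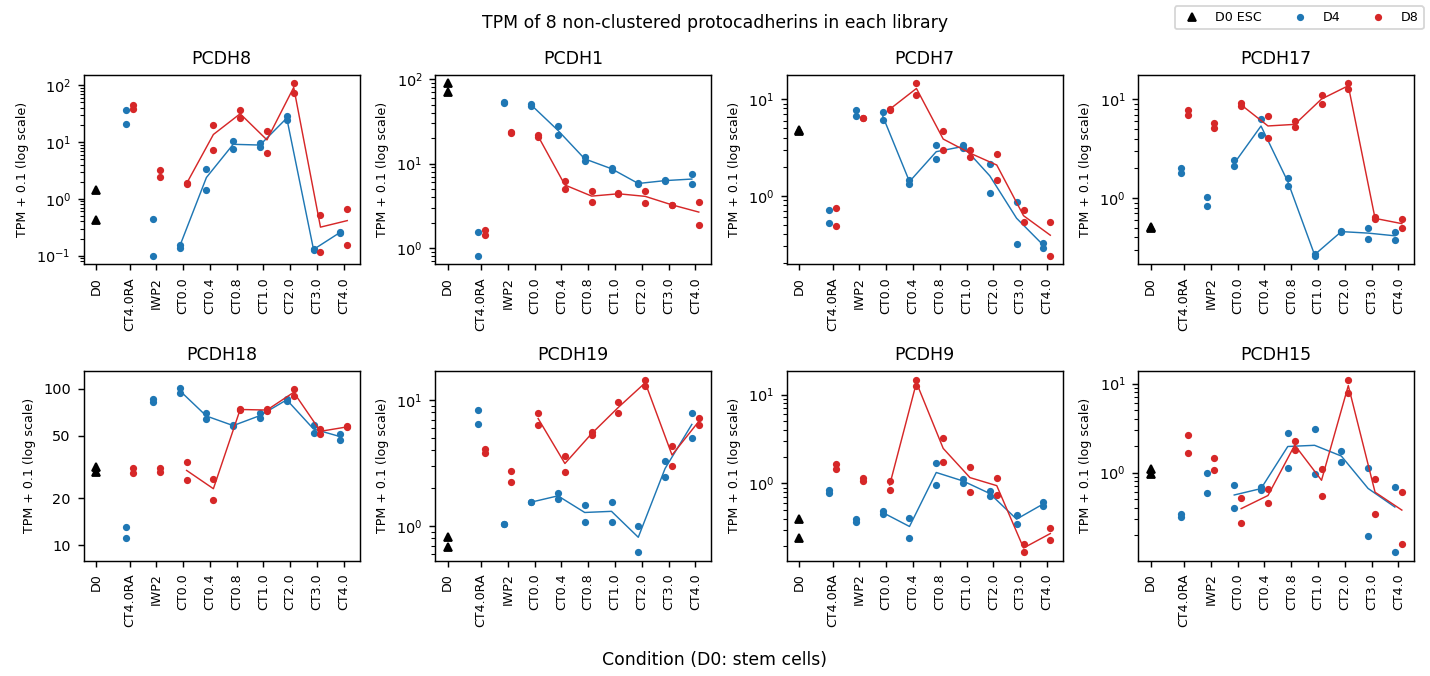
TPM + 0.1 on a log axis of 8 non-clustered protocadherins in each library, at D0, D4 and D8, with lines through the means of the CT doses. PCDH8 peaks at 2.0 µM CT and is high with RA, PCDH1 falls up to 2.0 µM on D4, PCDH9 peaks at 0.4 µM on D8, and PCDH17 at D8 is high up to 2.0 µM.

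Of the other delta-1 genes, PCDH7 and PCDH9 were highest at 0.4 µM CT at day 8, while the PCDH11X and PCDH11Y sum had its highest mean among the CT doses at 4.0 µM on both days. PCDH7 had 7.67 and 7.82 TPM at 0 µM CT at day 8, 14.5 and 11.1 TPM at 0.4 µM, 2.89 and 2.43 TPM at 1.0 µM and 0.441 and 0.140 TPM at 4.0 µM (D8 CT4.0 minus CT0.0 -2.77 ± 0.24, adjusted p = 3.7e-09). At day 4 it differed already at 0.4 µM, with 1.37 and 1.23 TPM in D4 CT0.4, against 5.96 and 7.20 TPM in D4 CT0.0 (-1.72 ± 0.24, 4.49e-05). So 0.4 µM went with a lower PCDH7 at D4 but not at D8, where the difference was 0.65 (0.0756) and was not called. PCDH9 had 14.7 and 12.4 TPM in D8 CT0.4, against 0.752 and 0.971 TPM in D8 CT0.0 (2.96 ± 0.21, 3.05e-10). At 0.8 µM it was back to 3.12 and 1.64 TPM, at 4.0 µM it had 0.214 and 0.133 TPM, and no other group mean reached its D8 CT0.4 level. In D8 CT4.0RA it had 1.56 and 1.36 TPM (1.07 ± 0.21 above D8 CT4.0, 0.000346). The PCDH11X and PCDH11Y sum was 14.6 and 14.5 TPM in D4 CT4.0 and 1.03 and 1.48 TPM in D4 CT1.0, against 8.35 and 6.60 TPM in D4 CT0.0. At day 8 it was 14.7 and 9.59 TPM in D8 CT4.0, against 4.55 and 4.37 TPM in D8 CT0.0.

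Counted over the small doses, D4 CT0.4 had 1 gene higher and 1 lower than D4 CT0.0 (PCDH8 and PCDH7), among 0.659% and 1.57% of all tested genes; after rescaling 2 were higher and 1 lower. D4 CT1.0 had 2 higher and 3 lower, among 1.44% and 3.78%. D8 CT0.4 had 3 higher (PCDH9, PCDH8 and PCDH20) and 1 lower (PCDH1), among 3.55% and 2.48%, and 7 genes were called without the 2nd D8 CT0.4 library. PCDH20 reached 1.47 and 0.859 TPM in D8 CT0.4, against 0.0199 and 0.0206 TPM in D8 CT0.0 (1.07), and was at 0.87 without the 1st D8 CT0.4 library. D8 CT1.0 had 2 higher and 3 lower, among 1.79% and 2.8%.

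Of the delta-2 genes, PCDH17, which in mouse gathers actin regulators of the WAVE complex at axon contacts, was high at day 8 at each dose up to 2.0 µM CT and low above it. It had 8.38 and 8.97 TPM at 0 µM, 14.5 and 12.7 TPM at 2.0 µM, 0.539 and 0.508 TPM at 3.0 µM and 0.393 and 0.511 TPM at 4.0 µM (D8 CT4.0 minus CT0.0 -2.74 ± 0.18, adjusted p = 6.95e-11). RA gave 7.71 and 6.77 TPM in D8 CT4.0RA (2.50 ± 0.18 above D8 CT4.0, 5.17e-10). Both the drop between 2.0 and 3.0 µM and the higher level with RA were also seen for PCDH8. At day 4 PCDH17 peaked lower down, with 1.99 and 2.31 TPM at 0 µM, 4.24 and 6.28 TPM at 0.4 µM, 0.173 and 0.162 TPM at 1.0 µM and 0.356 and 0.275 TPM at 4.0 µM, and it had 1.94 and 1.69 TPM in D4 CT4.0RA (1.09 ± 0.18 above D4 CT4.0, 0.000114). In D4 IWP2 it was 0.79 lower than in D4 CT0.0 on the log2 scale (0.0473), under the size limit.

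PCDH18 kept at least 11.1 TPM in every library; PCDH8 lay above it in both RA groups. At day 8 it had 34.1 and 26.0 TPM at 0 µM CT, 19.3 and 26.6 TPM at 0.4 µM, 74.1 and 73.3 TPM at 0.8 µM, 90.4 and 99.3 TPM at 2.0 µM and 57.4 and 56.7 TPM at 4.0 µM. It stood higher from 0.8 µM up (1.27 ± 0.12 at 1.0 µM, adjusted p = 5.8e-08; 0.92 at 4.0 µM, under the size limit), whereas at day 4 it was highest without CT and 0.97 lower at 4.0 µM on the log2 scale, again under the limit. RA went with lower PCDH18: it had 12.97 and 11.12 TPM in D4 CT4.0RA, against 51.7 and 47.1 TPM in D4 CT4.0 (-1.95 ± 0.12, 2.81e-11), and 31.3 and 28.9 TPM in D8 CT4.0RA, against 57.4 and 56.7 TPM in D8 CT4.0 (-0.90). PCDH19, mutated in an X-linked epilepsy, had 4.89 and 7.77 TPM in D4 CT4.0, against 1.46 and 1.45 TPM in D4 CT0.0 (1.55 ± 0.21, 4.31e-06). Its day 8 levels peaked at 14.5 and 12.8 TPM at 2.0 µM and were 2.59 and 3.51 TPM at 0.4 µM, 1.00 below CT0.0 on the log2 scale and just short of the limit. In D8 CT4.0RA it had 3.69 and 4.02 TPM, against 6.32 and 7.08 TPM in D8 CT4.0 (-0.66, not called).

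The last genes were low in most groups. PCDH15, which forms the tip links of inner ear hair cells, reached 11.01 and 7.80 TPM in D8 CT2.0 (F test over the D8 conditions, adjusted p = 1.76e-06). In D8 CT4.0RA it had 1.58 and 2.55 TPM, against 0.502 and 0.0563 TPM in D8 CT4.0 (1.26 ± 0.35, 0.00963), lost without the 2nd library of either group (0.115 without that of D8 CT4.0 and 0.109 without that of D8 CT4.0RA). PCDH12, known from endothelium, had 1.56 and 1.87 TPM in D8 CT4.0RA, against 0.351 and 0.350 TPM in D8 CT4.0 (1.00 ± 0.29, 0.0119). That call was lost without either D8 CT4.0 library (0.0554 and 0.0564) or without the 2nd D8 CT4.0RA library (0.0825). The endothelial markers PECAM1, CDH5 and KDR summed to 0.459 and 0.137 TPM in D8 CT4.0RA, against 1.05 and 0.202 TPM in D8 CT4.0. These low sums overlapped between the groups. PECAM1 averaged 0.156 TPM in D8 CT4.0RA and 0.531 TPM in D8 CT4.0. For CDH5 the means were 0.119 and 0.068 TPM, and for KDR 0.024 and 0.025 TPM. The part of such cells in the PCDH12 values was not tested. PCDH8, PCDH17, PCDH15, PCDH9 and PCDH12 were thus the 5 genes higher in D8 CT4.0RA.

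**Figure D5:**
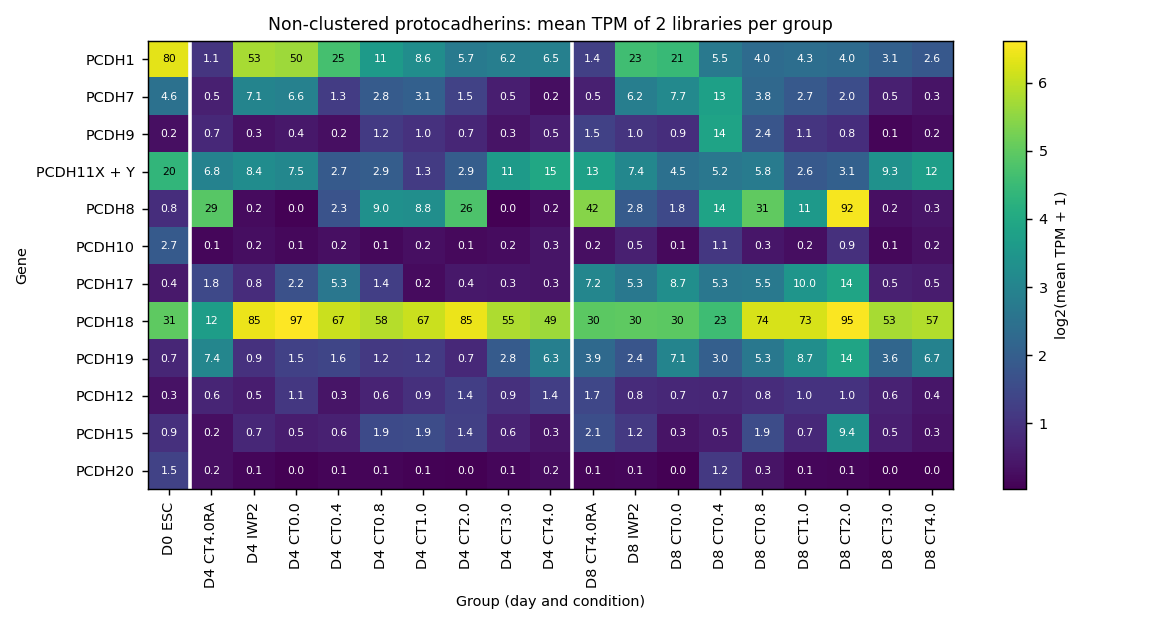
Mean TPM of the non-clustered protocadherins in the 19 groups, with PCDH11X and PCDH11Y as their sum; cell numbers are the mean of 2 libraries and the colour is log2(mean TPM + 1). PCDH18 is high in most groups, PCDH1 is highest in D0, and PCDH8 is high at 2.0 µM CT and with RA on both days.

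Genes known to act with protocadherins were counted by the same rule. Of 20 regulators of clustered promoters and chromatin, 2 rose in D4 CT0.0 against D0 (EHMT2, a histone methyltransferase, by 1.02, and STAG1, a cohesin subunit, by 1.04), near the 7.51% of all tested genes. With RA at D4 2 fell, among 4.07% of all tested genes, and the median over the 20 was -0.44 against -0.18 over all genes. DNMT3B, the methyltransferase that in mouse methylates these promoters, had 28.7 and 28.7 TPM in D4 CT4.0RA, against 63.1 and 72.4 TPM in D4 CT4.0 (-1.21, adjusted p = 2.15e-08), and TET3 fell by 1.03. CTCF had 29.5 and 26.0 TPM in D4 CT4.0RA, against 36.9 and 39.3 TPM in D4 CT4.0, and was called in no comparison. In D8 CT4.0 against CT0.0 3 fell: SMCHD1, a silencing factor of these clusters in mouse, by 1.25, DNMT3B by 1.09 and DNMT3A by 1.05, near the 12.7% of all tested genes.

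Of 13 genes of the WAVE complex and of kinases that bind protocadherin tails, 1 rose in D4 CT0.0 against D0 (WASF3, by 1.45), 2 fell in D8 CT4.0 against CT0.0 (RET by 1.10 and WASF1 by 1.03), and 1 rose with RA at D8 (WASF3, by 1.04). The shares of all tested genes were 7.51% higher, 12.7% lower and 4.54% higher in these comparisons, so the counts of this list were near the background. Of 14 tested classical cadherins, 8 rose and 2 fell in D4 CT0.0 against D0, among 7.51% and 9.24% of all tested genes, and there CDH1, the epithelial cadherin, fell by 6.14 and CDH2, the neural cadherin, rose by 3.13. With RA at D4 2 rose and 2 fell, CDH11 differing by -4.87 (among 1.77% and 4.07% of all tested genes), and in D8 CT4.0 against CT0.0 1 rose and 5 fell (among 3.15% and 12.7%). Of 9 tested large atypical cadherins, 3 rose in D4 CT0.0 against D0 (FAT1 by 2.58, CELSR2 by 1.54 and FAT4 by 1.50; 7.51% of all tested genes), 4 fell in D8 CT4.0 against CT0.0 (12.7%), and 2 rose with RA at D8 (FAT4 by 2.79 and CELSR2 by 1.68; 4.54%).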

How the data were processed

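Polyadenylated RNA of the 38 libraries was sequenced in paired ends on 2 instrument types that the labels do not tie to libraries. TPM values per gene were deposited by the authors; per the submitters' processing notes CASAVA 1.7 and Salmon 0.8.2 were used with hg38. TPM holds no read depth, so depth, counting intervals and the limit of detection are unknown here. The table is read by gene symbol, and no count model was used.

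Genes with at least 1 TPM in 2 or more libraries (28221 of 58219) were fitted together with limma 3.58.1 in R 4.3.3 on log2(TPM + 1), which understates changes of low genes, with 1 term per group (19 residual degrees of freedom) and 21 contrasts and F tests. Calls needed a Benjamini-Hochberg adjusted p under 0.05 over all genes tested and a difference of at least 1, or a slope of at least 0.25 per µM; F tests had no size limit. The fit was tested on simulated data. Alternatives were a pseudocount of 0.1, no filter, protein-coding genes alone, rescaling without ribosomal protein and mitochondrial genes, a replicate block, and leaving out each library.

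The members, the lists of regulators, WAVE complex and kinases, classical cadherins and large atypical cadherins, and the marker genes were chosen with earlier results of these data known. Genes named in the text were the 4 highest of each cluster, all non-clustered genes, the C-types and up to 3 per list. The 4 largest called changes per comparison and direction were named too, taken among genes whose libraries did not overlap. Of all these, those near a limit were named after their values were seen. Gene models were GENCODE 29 and promoters RefSeq.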

Additional observations from a re-analysis of the deposited data

Results flagged for a closer look

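The following effects passed the call rule for a difference between D8 and D4, each given as D8 minus D4. For the slope, 11.9% of all tested genes were lower and 2.01% higher. The 6 lower among the 42 tested clustered genes were near that share. For the slope per µM CT, PCDH18 had a difference of 0.36 (D8 0.21, D4 -0.15), the 1 gene with a higher slope at D8. PCDHGC4 had -0.49 (D8 -0.16, D4 0.33), PCDHGC3 -0.51 (D8 -0.35, D4 0.16) and PCDHGA11 -0.36 (D8 -0.24, D4 0.12), and these 3 slopes had opposite signs on the 2 days. PCDHGB4 had -0.44 (D8 -0.53, D4 -0.09), PCDHGB6 -0.31 (D8 -0.46, D4 -0.14) and PCDHGB5 -0.26 (D8 -0.24, D4 0.03), the PCDHGB5 value lying between -0.22 and -0.25 and losing its call without any 1 of 6 libraries. Among the non-clustered genes PCDH9 had -0.51 (D8 -0.54, D4 -0.03), PCDH8 -0.37 (D8 -0.70, D4 -0.33; adjusted p 0.0647 without the 1st D8 CT4.0 library), PCDH19 -0.32 (D8 0.03, D4 0.35) and PCDH17 -0.29 (D8 -0.69, D4 -0.40).

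For CT4.0RA minus CT4.0, all 11 differences were positive, among 5.56% higher and 1.56% lower of all tested genes. PCDHGC3 had 1.72 (D8 -0.40, D4 -2.11), PCDHGB4 1.52 (D8 0.69, D4 -0.83), PCDHGB6 1.51 (D8 0.59, D4 -0.93), PCDHA11 1.43 (D8 0.21, D4 -1.22), PCDHB15 1.39 (D8 0.36, D4 -1.03), PCDHA2 1.20 (D8 0.45, D4 -0.75; 0.92 without the 2nd D4 CT4.0RA library) and PCDHGB7 1.16 (D8 -0.04, D4 -1.20). The non-clustered genes were PCDH12 at 1.56 (D8 1.00, D4 -0.56), with an adjusted p of 0.0657 without the 1st D4 CT4.0RA library and 0.0722 without the 2nd D4 CT4.0 library, PCDH17 at 1.41 (D8 2.50, D4 1.09), PCDH1 at 1.35 (D8 -0.52, D4 -1.86) and PCDH18 at 1.05 (D8 -0.90, D4 -1.95), which was 0.95 to 0.99 without any 1 of 3 libraries. The comparisons share no libraries between days. Ribosomal protein genes took 38.6% of TPM in D8 CT4.0RA and 29.7% in D8 CT4.0, against 30.7% in D4 CT4.0RA and 23.3% in D4 CT4.0, and the part of this in the differences was not tested.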

How the results depend on the processing

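Of 142 calls on single genes, 113 held under every alternative, and no called gene changed direction. The pseudocount set the counts most: with 0.1 in place of 1 the called protocadherins numbered 22 in D4 CT0.0 against D0, 15 in D4 CT4.0 against D0, 1 in D4 IWP2, 6 in D4 CT0.4, 21 in D4 CT4.0 and 18 for the D4 slope, 21 with RA at D4, 8 in D8 CT0.4, 27 in D8 CT4.0, 32 for the D8 slope, 8 and 18 between days in CT4.0 and CT4.0RA, and 20 and 21 for the day differences of slope and RA effect. Rescaling gave 14 in D4 CT4.0 against D0, 11 in D4 CT4.0 against CT0.0, 11 between days in CT4.0RA and 17 for the day difference of RA. It moved the D8 CT4.0 log2 ratios of the sums to -0.21 (PCDHA), -0.77 (PCDHB) and -1.13 (PCDHG), and the PCDHG ratio with RA at D4 to -1.50; the cause was not tested.

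Leaving out 1 library moved the PCDHA log2 ratio of D8 CT0.0 to D4 CT0.0, which was 0.02, to between -0.029 and 0.074, so its sign is not fixed; it was -0.029 without the 2nd D8 CT0.0 or the 1st D4 CT0.0 library. The PCDHGB7 difference with RA at D8, -0.04, was -0.088 to 0.0032 without 1 library and 0.13 after rescaling. The called genes then numbered 3 to 7 in D8 CT0.4 (7 without its 2nd library), 1 to 6 between days in CT4.0 (1 and 6 without the 1st and the 2nd D8 CT4.0 library, 5 without the 1st D4 CT4.0 library), 4 to 6 with RA at D8 (4 without the 2nd library of either group) and 1 to 2 in D8 IWP2 (2 without the 2nd D8 CT0.0 library). The counts of the other comparisons stayed within 1.5 times. With no filter 2 calls were lost, and protein-coding genes alone lost none.

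The replicate numbers shared by groups do not pair the libraries: same-numbered deviations had a median correlation of 0.0018. A fit with the replicate block changed no call, and its counts were identical to those without it. Lone libraries left by a removal are assumed to vary like the other groups. TPM keeps no read depth, so low values carry an unknown counting error.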
